A study of Homo sapiens with 12 samples.

Results

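The SOX transcription factors described here are 5 genes, SOX4, SOX9, SOX12, SOX13 and SOX15, taken by gene symbol from 12 RNA-seq libraries of MDA-MB-231 cells. All 5 were found among the 19907 gene symbols in the files, and all 5 were among the 18579 genes that passed the filter of at least 10 reads summed over the libraries. MDA-MB-231 is an established human triple-negative breast cancer line, which expresses the glucocorticoid receptor (GR) but little or no estrogen receptor. The wt-GR cells were a clone that had come through the same CRISPR procedure without being edited. The S134A-GR cells were clone #1, in which both alleles of the GR gene NR3C1 carry the S134A substitution, which puts alanine in place of a serine that p38 MAPK can phosphorylate. Each line is 1 clone, so the edit and other differences between the clones cannot be told apart. All cells were starved for 18 h in IMEM with 1% DCC (charcoal-stripped serum, which is low in steroid hormones), with no GR ligand added. TGFβ1 at 10 ng/mL, or vehicle (Veh), was then given for 6 h, and each of the 4 combinations of line and treatment had 3 replicates. Nothing in the sources says that replicates came from separate cultures, so p-values measure only the spread between these libraries. In bulk RNA, fewer cells that express a gene and less RNA per cell cannot be told apart.

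SOX proteins bind DNA through an HMG box, a domain that enters the minor groove and bends the helix, and they usually act with partner proteins. They fall into groups by the sequence of that box. SOX4 and SOX12 belong to the SoxC group, which acts in progenitor cells and in the epithelial-to-mesenchymal transition, where SOX4 is known as a TGFβ target. SOX9 is a SoxE factor, best known for cartilage and also for mammary and other epithelial progenitors. SOX13 is a SoxD factor, with no transactivation domain of its own, and SOX15 is the SoxG factor.

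Values are normalized counts, which are reads per gene divided by the size factor of the library. The libraries held 56362036 to 129832227 recovered reads, with the fewest in wt-GR Veh replicate 1, and 3 reads, taken as the floor of detection, equalled 2.15 to 4.89 normalized counts. In every library the recovered reads exceeded the average number of reads per sample that the paper states, and the reason was not tested. Whether the mates of a pair were counted as 1 read or separately is not given in the sources used here. If they were counted separately, fewer molecules stand behind each count and behind this floor. The labelled line was checked first. VIM and CD44, which mark mesenchymal-like breast cancer cells, reached at least 419832 and 41033 normalized counts in every library, while the estrogen receptor gene ESR1 stayed at or below 7.32 and the epithelial cadherin gene CDH1 at or below 12.5. The progesterone receptor gene PGR was looked up, but its symbol was not in the files. Of 8 markers of other cell types 7 were in the files. The 2 cartilage markers ACAN and COL2A1 summed to 0 to 7.09, the 2 fibroblast markers DCN and PDGFRA to 3.77 to 34.6, and the immune marker PTPRC lay between 0 and 9.80. The 2 endothelial markers PECAM1 and VWF summed to 1684 to 1867 in wt-GR Veh, 1239.8 to 1294 in wt-GR TGFβ1, 1434 to 1556 in S134A-GR Veh and 907 to 1081 in S134A-GR TGFβ1 libraries. They thus moved in the same direction as SOX9 and SOX13 under TGFβ1, and their part in the results was not tested. NR3C1 was read in all libraries, at 10444 to 12729 in wt-GR Veh and 8516 to 8971 in S134A-GR Veh libraries, but its level does not show whether the codon was edited. TGFβ1 raised SMAD7, SKIL and PMEPA1, which are direct targets of the pathway, in both lines.

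Promoter sequences were at hand for 3 of the 5 genes, SOX4, SOX12 and SOX13, from the RefSeq table on GRCh38.p14. Every member with an entry is shown, and SOX9 and SOX15 had none. Between the lines, SOX12 and SOX13 were called higher in S134A-GR cells under both treatments. SOX4 was called lower there under Veh only, a call lost without any 1 of 4 libraries. Each run is the 250 bases before the annotated start, on the strand of the gene, which is the plus strand in all 3. SOX4 is at chr6:21593501-21593750, SOX12 at chr20:325302-325551 and SOX13 at chr1:204072865-204073114. Capitals mark matches to 4 motifs, the CCAAT box (CCAAT), the GC box (GGGCGG), an E-box (CAGCTG) and the SMAD element (CAGAC), each on either strand.
SOX4: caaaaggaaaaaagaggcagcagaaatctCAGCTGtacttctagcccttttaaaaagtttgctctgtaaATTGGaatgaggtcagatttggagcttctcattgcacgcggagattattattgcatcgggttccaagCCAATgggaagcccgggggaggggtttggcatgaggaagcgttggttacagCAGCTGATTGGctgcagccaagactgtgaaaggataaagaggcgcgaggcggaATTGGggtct
SOX12: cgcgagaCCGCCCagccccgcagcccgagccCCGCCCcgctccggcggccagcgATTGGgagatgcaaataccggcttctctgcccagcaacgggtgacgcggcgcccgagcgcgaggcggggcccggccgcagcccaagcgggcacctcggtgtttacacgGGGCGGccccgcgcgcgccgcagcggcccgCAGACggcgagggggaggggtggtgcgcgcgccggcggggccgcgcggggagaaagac
SOX13: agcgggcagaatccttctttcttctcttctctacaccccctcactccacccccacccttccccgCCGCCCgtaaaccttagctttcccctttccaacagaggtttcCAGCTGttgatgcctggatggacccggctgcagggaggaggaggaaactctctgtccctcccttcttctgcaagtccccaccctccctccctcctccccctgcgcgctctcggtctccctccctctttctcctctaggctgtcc
The SOX4 window held 4 CCAAT boxes and 2 E-boxes, and in 1 place an E-box and a CCAAT box adjoin without sharing a base. The SOX12 window held 3 GC boxes, 1 CCAAT box and 1 SMAD element, and 79.2% of its bases were G or C, against 48.8% for SOX4 and 60.8% for SOX13. The SOX13 window held 1 GC box and 1 E-box. Over the 35116 promoters cut to the same length, 32.0% held a CCAAT box, 42.6% a GC box, 14.0% this E-box and 38.0% a SMAD element. Matches were also sought to the SOX core (AACAAT), the GR half-site (AGAACA), the AP-1 element (TGANTCA) and the TATA box (TATAAA), which 8.98%, 12.4%, 6.57% and 10.7% of all promoters hold. None of the 3 windows held these letters, and none held the full GR element (the half-site and its reverse complement with a spacer of 3 bases between them), which 1 of the 35116 promoters did.

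On GRCh38, SOX4 is a single-exon gene at chr6:21593751-21598619 and SOX12 one at chr20:325552-330224. SOX9 has 3 exons at chr17:72121020-72126416, SOX13 has 14 exons at chr1:204073115-204127743, and SOX15, on the minus strand, has 2 exons at chr17:7588178-7590094. Whether the reads were counted by strand is not given in the sources used here. SOX15 shares 35 of its 1465 exonic bases (2.39%) with MPDU1 on the other strand, so reads in that stretch could not be told apart if strand was ignored. MPDU1 lay at group means of 8138 to 8594 normalized counts and passed none of the 5 tests. SOX9 and its antisense gene SOX9-AS1, and SOX12 and NRSN2-AS1, overlap as gene spans but share 0 exonic bases.

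SOX9 was the most abundant of the family. On the scale of normalized counts per kilobase of merged exons, the mean over the 12 libraries was 2060.3 for SOX9, 675 for SOX4, 585 for SOX13, 506 for SOX12 and 180.0 for SOX15. The other family members were far lower. Of 14 other SOX genes looked up, 8 were in the files, and the highest of them, the endothelial factor SOX18, had a mean of 10.6 per kilobase. The stem cell factor SOX2 had a mean of 0.934 and SOX7 one of 5.03 on the same scale. Lengths are those of all annotated exons merged, and the isoforms in use in these cells were not resolved. The lowest value of any member in any library was 162 normalized counts, of SOX15 in wt-GR Veh replicate 2, far above the floor.

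**Figure D1:**
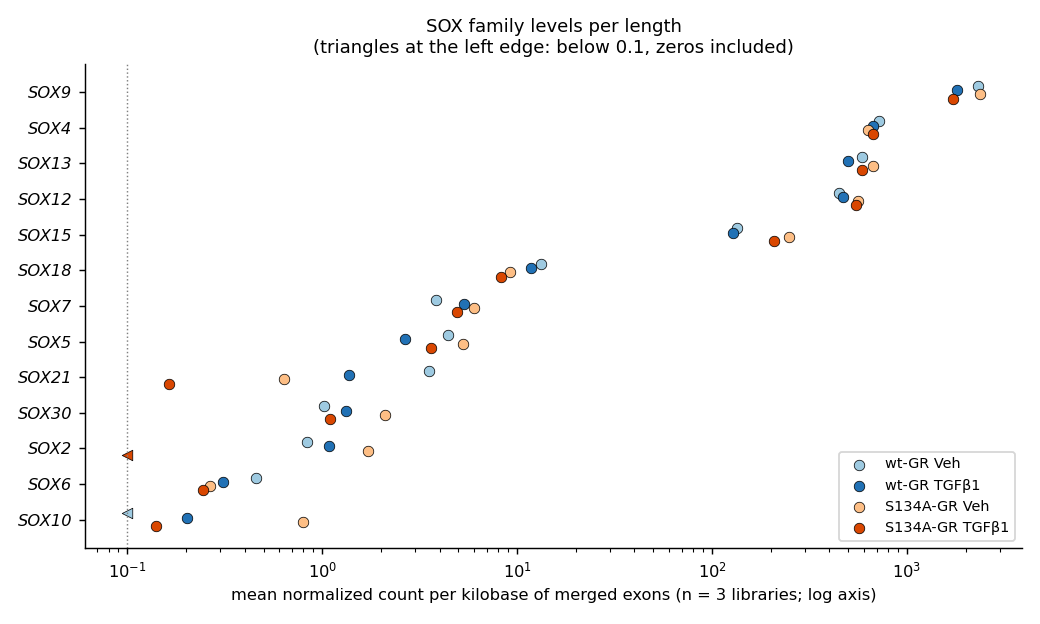
Mean normalized count per kilobase of merged exons (log axis) for the 13 SOX genes in the files, 1 point per group of 3 libraries, with values below 0.1 drawn as triangles at the left edge. The 5 members, from SOX9 at about 2060.3 down to SOX15 at about 180.0 over the 12 libraries, sit to the right of all 8 others in every group.

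The first comparison, S134A-GR against wt-GR under Veh, asks how the lines differ without TGFβ1. SOX12, SOX13 and SOX15 were higher in S134A-GR cells, SOX4 was lower, and SOX9 did not pass the test. Thus 4 of 5 members were called by limma at an FDR under 0.05, 3 higher and 1 lower. That share has to be read against the whole table, in which 51.5% of genes were called, 25.0% higher and 26.5% lower. The groups of 3 libraries did not overlap for the same 4 members, as for 57.3% of all genes.

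SOX15 showed the largest difference of the 5 on the log2 scale. In wt-GR Veh libraries it had 218, 162 and 211 normalized counts, and in S134A-GR Veh libraries 386, 329 and 377. Every S134A-GR library lay above every wt-GR library, and the highest wt-GR value was well below the lowest S134A-GR value. The means were 197 ± 30.7 and 364 ± 30.5 (SD, n = 3), a log2 fold change of 0.89 with an SE of 0.140 (limma adjusted p = 9.56e-05). Of the 4651 genes called higher in this comparison, 23.8% had a larger log2 fold change. The same share was 66.4% for SOX12 and 87.5% for SOX13. Among genes called lower, 86.7% had a larger fall than SOX4. SOX15 was also the member with the fewest reads, and its SE was the widest of the 5.

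SOX12, a SoxC factor whose activation domain is weaker than that of SOX4, had 2128, 2134 and 2039.6 normalized counts in wt-GR Veh and 2604, 2651 and 2608 in S134A-GR Veh libraries. The groups did not overlap, and the 3 S134A-GR values lay close together. The mean rose from 2100.5 ± 52.8 to 2621 ± 26.0 (SD, n = 3), by 0.32 on the log2 scale with an SE of 0.0512 (limma adjusted p = 0.000115).

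SOX13, whose group partners SOX9 in cartilage through SOX5 and SOX6, had 4383, 4280.3 and 4369.7 normalized counts in wt-GR Veh and 5075, 4880.0 and 4902 in S134A-GR Veh libraries. Again no wt-GR library reached the lowest S134A-GR library. The log2 fold change was 0.19 with an SE of 0.0340 (limma adjusted p = 0.000315), and the mean was 14.0% higher.

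SOX4 went the other way. It had 3603, 3516 and 3381 normalized counts in wt-GR Veh and 3065, 3274 and 2919 in S134A-GR Veh libraries, so that all S134A-GR values lay below all wt-GR values, with a small gap. The mean was 3499.9 ± 112 against 3086 ± 178 (SD, n = 3), a log2 fold change of −0.18 with an SE of 0.0618 (limma adjusted p = 0.0232). The call rested on single libraries, since it was lost without any 1 of 4 of the 6 Veh libraries (adjusted p = 0.0601 to 0.104 without wt-GR replicate 1 or 2 or S134A-GR replicate 1 or 3).

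SOX9 had 9727, 9014 and 8689 normalized counts in wt-GR Veh and 9460.4, 9193 and 9265 in S134A-GR Veh libraries. The 3 S134A-GR values fell inside the wt-GR range. The log2 fold change was 0.03, with a 95% interval from −0.07 to 0.12 (limma adjusted p = 0.644).

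**Figure D2:**
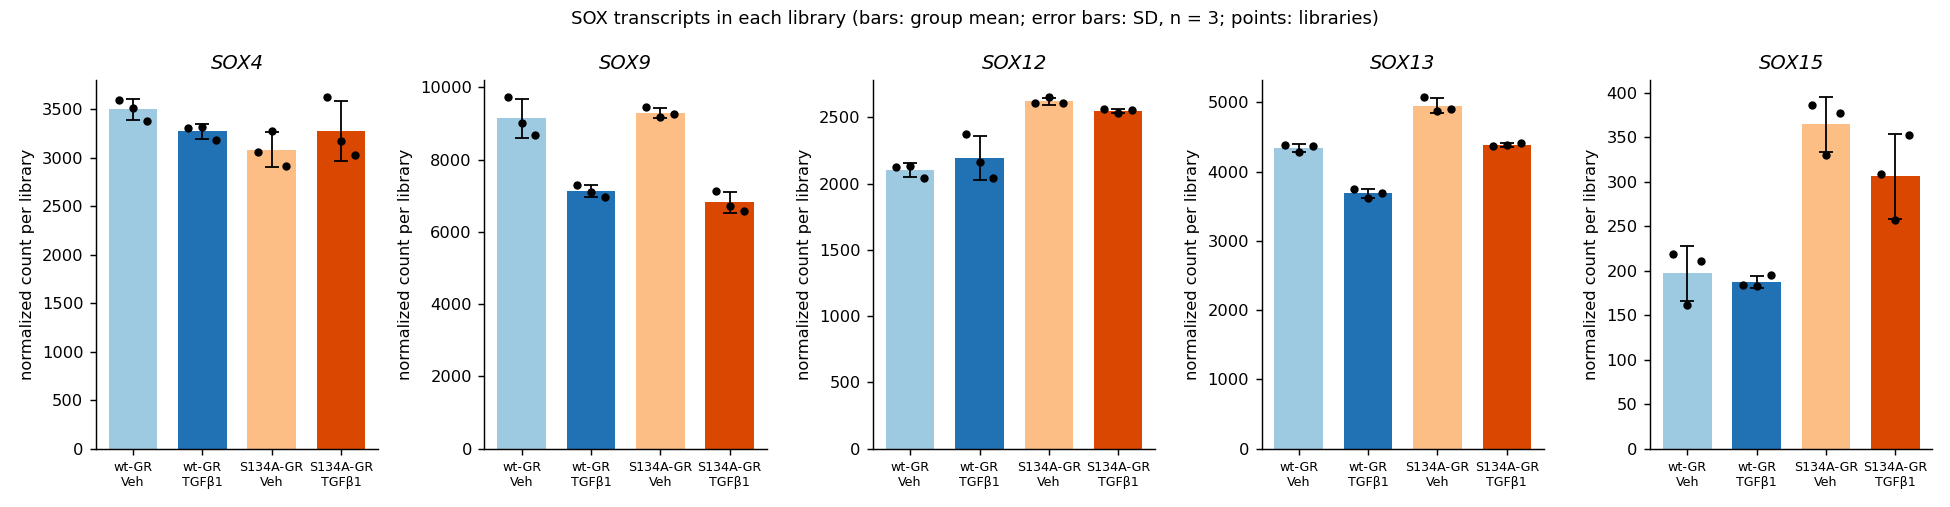
Normalized counts (vertical axes, each from 0) of the 5 SOX genes in the 4 groups, with bars at the group mean, error bars of 1 SD (n = 3) and a point for each library. SOX12 and SOX15 follow the line, SOX9 follows the treatment, SOX13 moves with both, and the SOX4 group means lie between 3086 and 3499.9.

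Under TGFβ1 the same comparison between the lines called 3 of 5 members, SOX12, SOX13 and SOX15, all higher in S134A-GR cells. Over all genes 48.8% were called, 23.1% higher and 25.7% lower. The groups did not overlap for these 3 members, nor for 55.6% of all genes. The 3 genes that were higher in S134A-GR cells under Veh were thus also higher under TGFβ1, as were 19.0% of all genes tested.

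SOX15 had 184, 183 and 196 normalized counts in wt-GR TGFβ1 and 309, 257 and 352 in S134A-GR TGFβ1 libraries. The S134A-GR values were spread widely but all exceeded the wt-GR values, which were close together. The log2 fold change was 0.69 with an SE of 0.140 (limma adjusted p = 0.000917).

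SOX13 had 3755, 3619.7 and 3686 normalized counts in wt-GR TGFβ1 and 4364, 4382 and 4418 in S134A-GR TGFβ1 libraries. The groups were far apart next to their spread, with a log2 fold change of 0.25 and an SE of 0.0340 (limma adjusted p = 2.76e-05). For SOX12 the values were 2375, 2163 and 2043 in wt-GR and 2563, 2533 and 2552 in S134A-GR libraries. The wt-GR libraries varied more here than under Veh, yet none reached the S134A-GR range, and the log2 fold change was 0.22 with an SE of 0.0512 (limma adjusted p = 0.0026). Of the genes called higher under TGFβ1, 28.9% had a larger log2 fold change than SOX15, 74.3% than SOX13 and 80.9% than SOX12.

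SOX4 did not differ detectably between the lines under TGFβ1. It had 3314, 3322 and 3186 normalized counts in wt-GR and 3625, 3175 and 3031 in S134A-GR libraries, the second group enclosing the first. Its log2 fold change was −0.0026, with an interval from −0.14 to 0.13 (limma adjusted p = 0.979). SOX9 had a log2 fold change of −0.07, with an interval from −0.16 to 0.03 (limma adjusted p = 0.250), and its groups overlapped.

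TGFβ1 against Veh within each line asks which members respond to the cytokine after 6 h. In wt-GR cells SOX9 and SOX13 fell, and the other 3 did not pass the test, so that 2 of 5 were called, both lower. Over all genes 21.0% were called in this comparison, 11.2% higher and 9.82% lower. The libraries of wt-GR cells did not overlap between treatments for SOX4, SOX9 and SOX13, as for 33.9% of all genes. In S134A-GR cells the same genes, SOX9 and SOX13, fell, where 18.7% of all genes were called, 10.0% higher and 8.69% lower. There the groups did not overlap for SOX9, SOX12 and SOX13, as for 35.6% of all genes. Genes called lower in both lines made up 5.63% of those tested.

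SOX9 gave the largest response of the 5. In wt-GR cells it went from 9727, 9014 and 8689 normalized counts under Veh to 7303, 7103 and 6980.5 under TGFβ1. In S134A-GR cells it went from 9460.4, 9193 and 9265 to 7147, 6723 and 6581. In both lines every TGFβ1 library lay below every Veh library by a wide gap. The mean fell from 9143 ± 531 to 7129 ± 163 in wt-GR cells (SD, n = 3), a log2 fold change of −0.36 with an SE of 0.0443 (limma adjusted p = 4.12e-05). In S134A-GR cells it fell from 9306 ± 138 to 6817 ± 295, a log2 fold change of −0.45 with the same SE (limma adjusted p = 5.21e-06). Among genes called lower, 47.9% in wt-GR and 39.0% in S134A-GR cells had a larger fall than SOX9, so its response was of middling size for a responding gene.

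SOX13 fell from 4383, 4280.3 and 4369.7 normalized counts to 3755, 3619.7 and 3686 in wt-GR cells, with no overlap. The log2 fold change was −0.24 with an SE of 0.0340 (limma adjusted p = 0.000164), a mean 15.1% lower. In S134A-GR cells it fell from 5075, 4880.0 and 4902 to 4364, 4382 and 4418, again with no overlap and by −0.17 on the log2 scale (limma adjusted p = 0.00228). Among genes called lower, 70.7% in wt-GR and 87.8% in S134A-GR cells had a larger fall than SOX13. The TGFβ1 libraries of S134A-GR cells reached about the level of wt-GR cells under Veh, and the ranges of these 2 groups overlapped.

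The SoxC members and SOX15 gave no call for TGFβ1 in either line. In wt-GR cells the log2 fold change of SOX4 was −0.10, with an interval from −0.23 to 0.04 (limma adjusted p = 0.323), although the Veh and TGFβ1 libraries did not overlap. In S134A-GR cells it was 0.08, with an interval from −0.05 to 0.22 (limma adjusted p = 0.408). For SOX12 the values were 0.06 (−0.05 to 0.17) in wt-GR and −0.04 (−0.15 to 0.07) in S134A-GR cells. The intervals of SOX15 were wider, with −0.06 (−0.36 to 0.24) in wt-GR and −0.26 (−0.56 to 0.04) in S134A-GR cells. The highest upper bound among these 6 intervals was 0.24, for SOX15 in wt-GR cells.

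**Figure D3:**
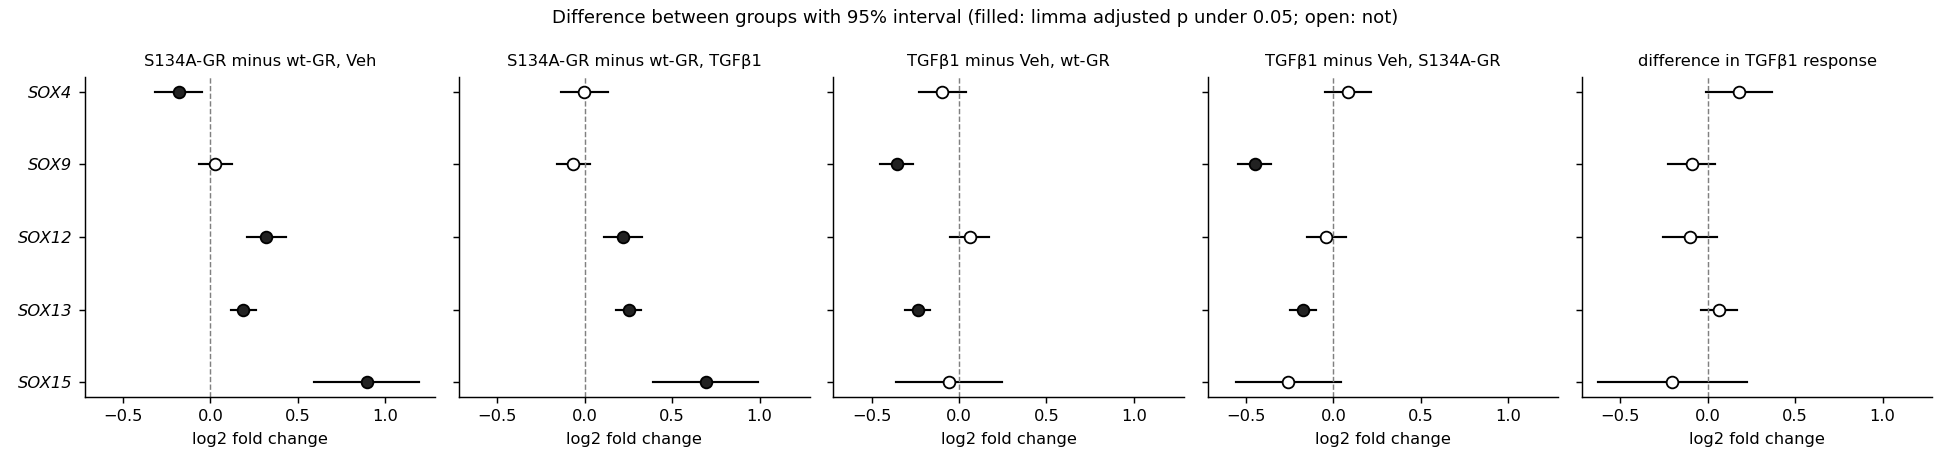
Log2 fold change (horizontal axis) of each SOX gene in the 5 comparisons, with the 95% interval as a line and filled points where the limma adjusted p was under 0.05. Filled points stand to the right of 0 for SOX12, SOX13 and SOX15 between the lines. They stand to the left for SOX4 between the lines under Veh, and for SOX9 and SOX13 for TGFβ1 minus Veh in each line. All 5 points are open for the difference in response.

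The last comparison asks whether the response to TGFβ1 differed between the lines, by the interaction term of the model. No member passed, with 0 of 5 called by limma, by edgeR's quasi-likelihood test or by DESeq2, and 0 of 5 at an unadjusted p under 0.05 with each of these tools. Over all genes limma called 0.414%, or 77 genes, 0.167% with a higher and 0.248% with a lower response in S134A-GR cells, and 9.30% had an unadjusted p under 0.05. The nearest was SOX4, with a difference in response of 0.18 on the log2 scale and an interval from −0.01 to 0.37 (limma adjusted p = 0.555). The difference was −0.09 for SOX9 (−0.23 to 0.04) and 0.06 for SOX13 (−0.04 to 0.17), the members that fell in both lines. SOX12 had −0.10 (−0.26 to 0.06) and SOX15 −0.20 (−0.63 to 0.22). The call of SOX4 between the lines under Veh and its absence under TGFβ1 are therefore not shown to differ. The comparisons share libraries (each Veh group enters the line comparison and a treatment comparison), so their values for a gene are not independent.

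The order of the groups differed from gene to gene. For SOX9 the order was S134A-GR Veh, wt-GR Veh, wt-GR TGFβ1 and S134A-GR TGFβ1, and only the step between the Veh and TGFβ1 pairs had no overlap. For SOX13 it was S134A-GR Veh, S134A-GR TGFβ1, wt-GR Veh and wt-GR TGFβ1, where the middle pair overlapped. SOX12 and SOX15 had both S134A-GR groups above both wt-GR groups. For SOX4 each group overlapped the next in the order.

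The other SOX genes were few and low. Of the 8 that were tested, SOX10, a SoxE factor of neural crest and pigment cells, was called higher in S134A-GR Veh libraries, at 5.66, 4.05 and 1.78 normalized counts against 0 in the 3 wt-GR Veh libraries. These values are at or near the floor of 3 reads, or fewer molecules if mates were counted separately, and no fold is given. None of the 8 was called in any of the other 4 comparisons by limma. Over all genes 51.5% were called between the lines under Veh and 48.8% under TGFβ1. For TGFβ1 it was 21.0% in wt-GR and 18.7% in S134A-GR cells, and 0.414% for the difference in response. The 8 genes averaged 1.37 (SOX10) to 44.9 (SOX5) normalized counts over the 12 libraries, so the absence of a call says little about them.

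Genes known as targets of SOX4 or the SoxC group were counted next, 8 genes in all, with all 8 tested. Under Veh 4 were higher in S134A-GR cells (EZH2, TEAD2, TUBB3 and NRP1) and 0 lower, where 25.0% of all genes were higher and 26.5% lower, while SOX4 itself was lower there and SOX12 higher. Under TGFβ1 6 were higher, the same 4 with KLF5 and SEMA3C, and 0 lower, against 23.1% and 25.7% of all genes. Counted in either direction, 4 of 8 is near the 51.5% of all genes called under Veh. The median log2 fold change of the list was 0.13 under Veh and 0.25 under TGFβ1, against 0.02 and 0.01 over all genes tested. TUBB3, a neuronal tubulin, had the clearest difference, with means of 13826 ± 541 in wt-GR Veh and 20036 ± 829 in S134A-GR Veh libraries (SD, n = 3; limma adjusted p = 5.30e-08). EZH2, the histone methyltransferase of Polycomb complexes, rose from 7269 ± 246 to 8421 ± 119 (limma adjusted p = 0.000514).

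With TGFβ1, SEMA3C and EDN1 rose in both lines and NRP1 fell in both, and the other 5 of these genes were not called. Over all genes 11.2% rose and 9.82% fell in wt-GR cells, and 10.0% rose and 8.69% fell in S134A-GR cells. EDN1, which encodes endothelin-1, had 1183, 1334 and 1415 normalized counts under Veh and 5705, 5521 and 5716 under TGFβ1 in wt-GR cells, a log2 fold change of 2.11 (limma adjusted p = 3.03e-11). All TGFβ1 libraries stood far above all Veh libraries, while SOX4 and SOX12 gave no call. NRP1, a co-receptor of semaphorins and VEGF, fell by 0.26 on the log2 scale in wt-GR cells (limma adjusted p = 0.00438).

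Of 13 genes known as SOX9 targets in cartilage, 11 were in the files and 10 were tested. Under TGFβ1, where SOX9 fell, COL9A2, a chain of collagen IX, fell in both lines. It had 885, 979 and 1012 normalized counts under Veh and 858, 797 and 798 under TGFβ1 in wt-GR cells, without overlap, and a log2 fold change of −0.23 (limma adjusted p = 0.0315). In S134A-GR cells the change was −0.27 (limma adjusted p = 0.0142). COL9A3, another chain of the same collagen, rose in wt-GR cells instead, from 104, 105 and 137 to 257, 162 and 194 (limma adjusted p = 0.0200), and was not called in S134A-GR cells (adjusted p = 0.319). The difference between these responses was −1.16 on the log2 scale and did not pass the test (limma adjusted p = 0.219). No other gene of this list was called for TGFβ1 in either line. The calls were thus 2 of 10 in wt-GR and 1 of 10 in S134A-GR cells, against 21.0% and 18.7% of all genes. ACAN, COL2A1, COL11A1, COL11A2, HAPLN1 and S100B averaged only 0.85 to 7.15 normalized counts over the 12 libraries. With the floor at 2.15 to 4.89, the absence of a call says little for these genes.

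Between the lines, where SOX9 gave no call, COL9A3 was lower in S134A-GR cells under Veh and under TGFβ1, with log2 fold changes of −0.92 and −2.08 (limma adjusted p = 0.00322 and 3.13e-06). S100A1, a calcium-binding protein gene, was higher under both, by 0.62 and 0.66. COL11A1 was called lower under Veh, but at 4.61 normalized counts on average in wt-GR and 0 in S134A-GR libraries it lay near the floor. Of the list, 3 of 10 were called under Veh and 2 of 10 under TGFβ1, against 51.5% and 48.8% of all genes. The median of the list was 0.25 under Veh and 0.08 under TGFβ1, against 0.02 and 0.01 over all genes tested. COL2A1, HAPLN1, COL11A2, ACAN and COL11A1 averaged 0.85 to 3.08 normalized counts over the 12 libraries, so these medians rest in part on genes near the floor.

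Proteins that bind, modify or degrade SOX factors were a list of 12 genes, all tested. Under Veh 8 differed between the lines, 3 higher in S134A-GR cells (FBXW7 and SNAI2 among them) and 5 lower (SDCBP, PIAS1, TCF7L1, GSK3B and CTNNB1). Under TGFβ1 the same genes but GSK3B were called, in the same directions. These counts stand beside 51.5% and 48.8% of all genes called in the 2 comparisons, and nothing particular to the list is read from them. SDCBP, which encodes syntenin, a protein that binds SOX4, had means of 16246 ± 502 in wt-GR Veh and 13558 ± 333 in S134A-GR Veh libraries (SD, n = 3), a log2 fold change of −0.26 (limma adjusted p = 8.05e-05). FBXW7, the ubiquitin ligase subunit that targets SOX9 after its phosphorylation by GSK3, was higher by 0.33 (limma adjusted p = 0.000886), and GSK3B was lower by 0.21 (limma adjusted p = 0.00827). PIAS1, a SUMO ligase, was lower, with a log2 fold change of −0.28 (limma adjusted p = 0.000217).

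TGFβ1 raised 4 of these 12 genes in each line, SNAI2, TCF7L2, TCF7 and CTNNB1, and lowered 0, where 11.2% of all genes rose in wt-GR and 10.0% in S134A-GR cells. SNAI2 encodes Slug, which acts with SOX9 in mammary stem cells. It had 2542, 2605 and 2605 normalized counts under Veh and 3364, 3287 and 3066 under TGFβ1 in wt-GR cells, with no overlap (log2 fold change 0.32, limma adjusted p = 0.000317). It rose where SOX9 fell, and did so by 0.29 in S134A-GR cells as well (limma adjusted p = 0.00089). CTNNB1 encodes β-catenin, and TCF7 and TCF7L2 encode the TCF proteins it binds, with which SOX9 and SOX13 are known to compete or interact. TCF7 rose by 0.79 in wt-GR and 0.46 in S134A-GR cells.

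Of 4 non-coding RNAs named for or lying beside SOX genes, CASC15, next to SOX4, rose with TGFβ1 in both lines, with log2 fold changes of 2.44 and 2.81 (limma adjusted p = 0.0243 and 0.0123). Its levels were low, from 3.55 to 24.3 normalized counts in wt-GR and from 6.81 to 34.4 in S134A-GR cells on average. The Veh libraries had 2, 3 and 4 reads of CASC15 in wt-GR and 12, 9 and 0 in S134A-GR cells. Several of these lie at or near the floor of 3 reads, so the size of its fold changes is uncertain. SOX9-AS1 had 80.1, 105 and 90.9 normalized counts under Veh and 52.3, 49.6 and 41.5 under TGFβ1 in S134A-GR cells, a fall without overlap (log2 fold change −0.93, limma adjusted p = 0.0280). In wt-GR cells its means were 59.2 ± 9.15 and 40.1 ± 16.8 (SD, n = 3), and the difference did not pass (limma adjusted p = 0.130). SOX2-OT and SOX21-AS1 were not called in any comparison, and CASC15 and SOX9-AS1 were not called between the lines.

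The genes on either side of each member in RefSeq order, up to 5 tested on each, show what the neighbourhood did. Beside SOX4, 7 of 10 neighbours were lower in S134A-GR cells under Veh and 0 higher, with E2F3 at −0.37 and CDKAL1 at −0.27 on the log2 scale, and SOX4 at −0.18. Under TGFβ1, where SOX4 was not called, 6 of these 10 were lower and 0 higher. Over all genes, 26.5% were lower under Veh and 25.7% under TGFβ1. Beside SOX9, 4 of 10 neighbours fell with TGFβ1 in each line and 0 rose. Among them was MAP2K6, a kinase that activates p38 MAPK, with log2 fold changes of −1.31 in wt-GR and −1.79 in S134A-GR cells, and the non-coding RNA LINC00673, with −0.34 and −0.53. Over all genes, 9.82% and 8.69% were called lower with TGFβ1 in wt-GR and S134A-GR cells. Whether neighbouring genes share a cause was not tested.

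Beside SOX15, 6 of 10 neighbours were higher in S134A-GR cells under Veh and 1 was lower, against 25.0% and 26.5% of all genes. CD68 was higher by 0.56 and SAT2 by 0.38 on the log2 scale, while MPDU1, which lies next to SOX15 and overlaps it, was not called, with a log2 fold change of 0.07 (limma adjusted p = 0.206). Under TGFβ1 3 were higher and 1 lower, against 23.1% and 25.7%. SOX12 lies near the end of chromosome 20 and had 8 neighbours, of which 2 were higher and 2 lower under Veh, with NRSN2, the next gene, at 0.21. SOX13 had 2 of 10 higher and 2 lower. Its neighbour KISS1, a metastasis suppressor gene, stood at −3.94 on the log2 scale, the opposite direction to SOX13.

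**Figure D4:**
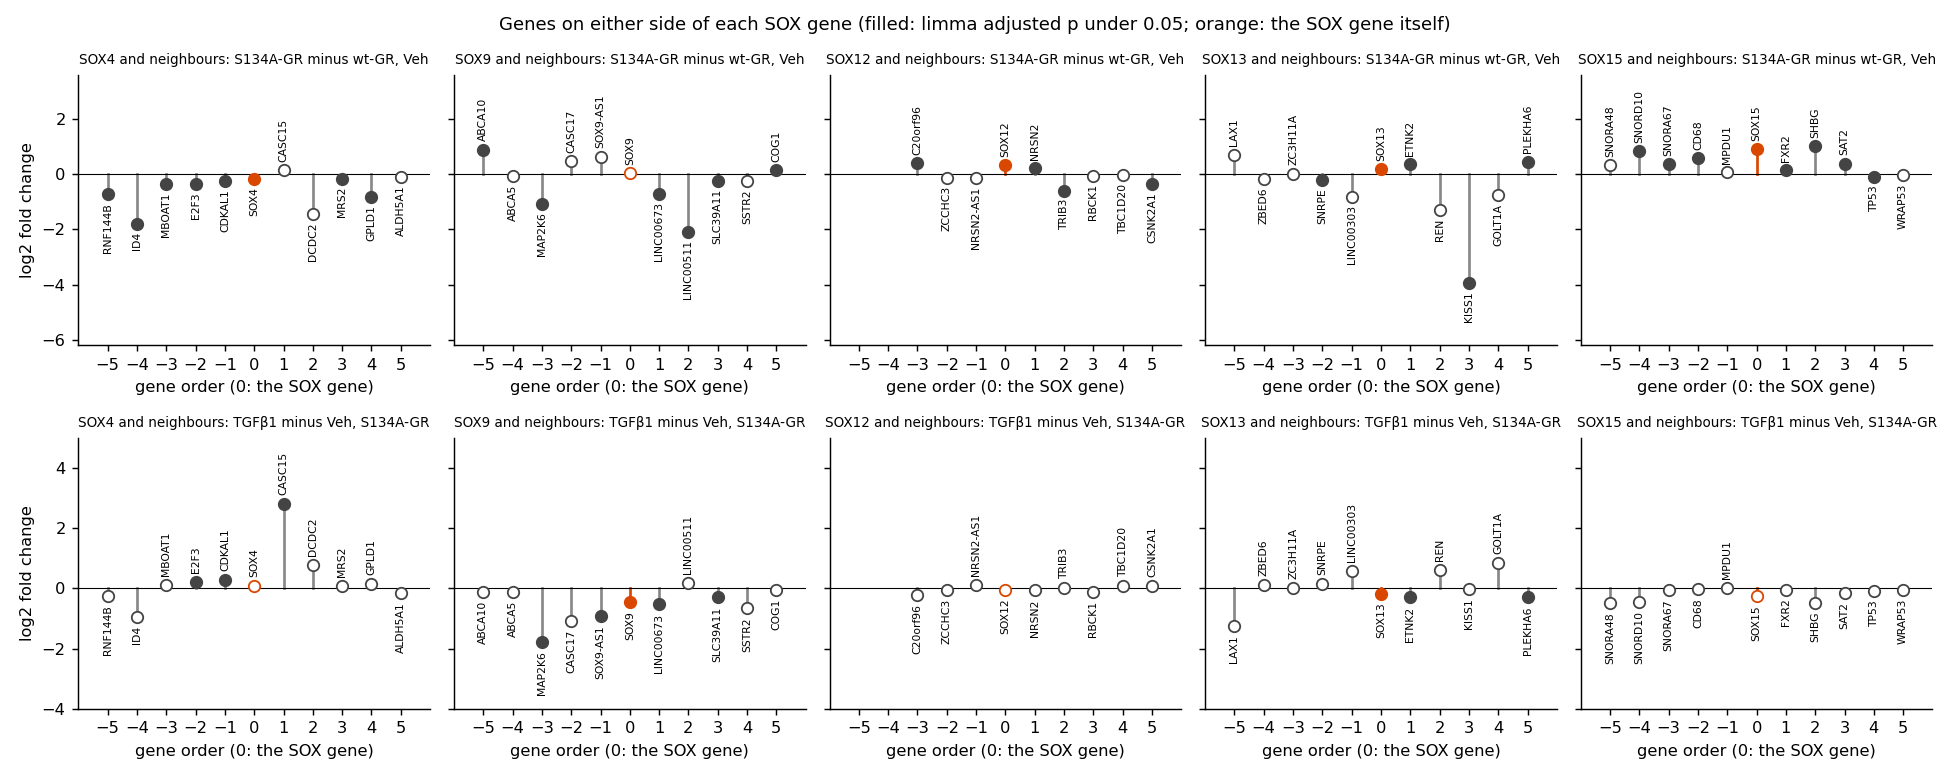
Log2 fold change (vertical axis) of each SOX gene (orange, position 0) and its tested neighbours in gene order (horizontal axis), for S134A-GR minus wt-GR under Veh in the upper row and TGFβ1 minus Veh in S134A-GR cells in the lower row, with filled points where the limma adjusted p was under 0.05. In the upper row 7 of 10 SOX4 neighbours are filled and below 0, and in the lower row SOX9 lies among 4 filled neighbours below 0.

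The genes most like each member were found by the root mean square difference of their centred log2 values over the 12 libraries, among 13281 genes with a mean of at least 50 normalized counts. For SOX9 they were THRA (0.0388), which encodes a thyroid hormone receptor, IRS1 (0.0622) and HS1BP3 (0.0633), where the median gene differed by 0.281. For SOX13 they were CCDC85C (0.0356), WWP2 (0.0383) and ABHD4 (0.0399). For SOX12 they were SPNS1 (0.0359), C1orf216 (0.0418) and OTUD5 (0.0430), and those of SOX4 included MTM1 (0.0460) and C3orf38 (0.0507). SOX15, with its lower counts, had no gene as near, and its closest were GABPB1-AS1 (0.121), FAM222A (0.121) and C9orf40 (0.136). These distances describe the 12 libraries, which share lines and treatments, and carry no test.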

How the data were processed

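RNA-seq of 12 MDA-MB-231 libraries was analysed, with groups taken from the sample labels. Per the methods and the submitters' processing notes, the authors checked reads with FastQC 0.11.7, trimmed with Trimmomatic, aligned 75-base paired reads to hg38 with HISAT2, counted genes with featureCounts and scaled with DESeq2 1.22.2. The annotation, strand setting, versions of HISAT2 and featureCounts, and whether a pair counted as 1 read are not given in the sources used here. The deposited signal is the normalized count, 1 value per gene symbol and library. Within 0.01, 100% of values were whole multiples of 1 step per library, which recovered the reads.

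Log2 of the normalized count plus 1 was fitted with limma 3.58.1 (R 4.3.3), with 4 group means, empirical Bayes with trend, and Benjamini-Hochberg adjustment over 18579 genes with at least 10 reads over the 12 libraries. Fold changes on this scale understate changes of low genes. A call is an FDR under 0.05 at any fold. Intervals are at 95%. On the recovered reads, edgeR 4.0.16 called 9452 genes between the lines under Veh and DESeq2 1.42.0 called 9428, against 9569 with limma. The fits were tested on simulated counts, with 50 genes at each size changed in S134A-GR Veh libraries and a spread set in advance. Of these limma called 56% at 1.25-fold and 100% at 1.5-fold in the right direction. Small changes can thus go uncalled. Between replicates the chi-square of counts per degree of freedom was 8.69 to 22.55, but 43.7 for wt-GR Veh replicates 1 and 3. These values exceed what counting error alone gives for 1 library sequenced again. They cannot tell whether libraries came from the same culture or RNA sample. Floors of 3 reads cover counting error only.

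The members and gene lists were chosen with earlier results of these data known. Genes named are the members, those of the lists, up to 5 tested neighbours a side in the RefSeq order of GRCh38.p14, and the 3 most alike genes. Some genes of these sets are not reported here.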

Additional observations from a re-analysis of the deposited data

Results flagged for a closer look

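None of the 5 SOX genes was singled out. Among the genes checked beside them, PMEPA1, a TGFβ target used to check the treatment, responded differently in the lines. It rose by 2.90 on the log2 scale in wt-GR cells and by 2.18 in S134A-GR cells, a difference of −0.72 (limma adjusted p = 0.000909).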

How the results depend on the processing

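The calls of SOX12, SOX13 and SOX15 between the lines, and of SOX9 and SOX13 under TGFβ1, held under pseudocounts of 0.5 and 16, no filter beyond 1 read, edgeR's filterByExpr, TMM scaling, edgeR's quasi-likelihood test with TMM or RLE, DESeq2, a replicate block, the compared groups alone and each library left out. With a minimum log2 fold change of 1 added, 0 of 5 members were called in all 5 comparisons, and the genes called in the order of the report were 1767, 1571, 425, 309 and 11. This follows from the rule, since no member changed by 1.

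Without 1 library, the members called ranged from 3 to 4 between the lines under Veh and stayed at 3, 2, 2 and 0 in the other comparisons. Genes called ranged from 8478 to 9695 and from 8063 to 9381 between the lines, from 2800 to 4377 and from 2497 to 3830 for TGFβ1 in wt-GR and S134A-GR cells, and from 22 to 166 for the difference in response, where DESeq2 called 208 against 77. Small differences of uncalled members changed sign without 1 library. SOX4 between the lines under TGFβ1 ranged from −0.077 to 0.052 and was above 0 without wt-GR replicate 1 or 2 or S134A-GR replicate 2 or 3. SOX9 between the lines under Veh ranged from −0.0090 (without wt-GR replicate 3) to 0.072, and SOX15 under TGFβ1 in wt-GR cells from −0.19 to 0.024 (without Veh replicate 1). The cause was not tested.

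Equal replicate numbers did not mark paired libraries. Over 18 pairs with equal numbers, the correlation of departures from the group mean averaged 0.0051, and 4 of 12 libraries correlated best with their own number. With the replicate block the members called were 4, 3, 2, 2 and 0, as without it, and the genes called were 9425, 8908, 3678, 3198 and 58. For the difference in response, 1 member (SOX4) passed an unadjusted 0.05 with the block by limma, and 0 passed after adjustment. Some fits without 1 library gave the same counts. The member was SOX4 without wt-GR Veh replicate 3, S134A-GR Veh replicate 2 or S134A-GR TGFβ1 replicate 3. It was SOX9 without wt-GR Veh replicate 1, and SOX12 without wt-GR TGFβ1 replicate 3. With any other library left out, 0 members passed before adjustment. Depth limits SOX15 most, with 162 normalized counts in its lowest library. The lower level of SOX4 in S134A-GR cells under Veh, a call lost without any 1 of 4 libraries (log2 fold change −0.14 to −0.23 with each library left out), is the 1 call of a member that leaving out a library ended. A fit of the compared groups alone could not be made for the difference in response, which needs all 4 groups.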
